A study of Mus musculus with 16 samples.

Results

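*Tox*-high proprioceptors of mouse dorsal root ganglia (DRG) at embryonic day (e) 15.5 were examined as the presumptive counterpart of neurons that innervate back muscles. They were 101 of the 259 proprioceptors found among 960 wells of this age, in a series of 1536 wells. Levels are in CPM, the unique molecular identifiers (UMIs) of a gene per 1000000 UMIs of a cell or of the summed cells. A well was counted as a proprioceptor when it held at least 10000 UMIs with a mitochondrial share below 10%, at least 1 UMI each of *Pvalb*, *Runx3*, *Etv1* and *Ntrk3*, and at least 300 CPM of *Etv1*. It also had to hold less than 200 CPM of the glial genes *Apoe* and *Fabp7* together and less than 500 CPM of the collagen genes *Col1a1* and *Col1a2* together. Proprioceptors with at least 20 CPM of *Tox* are called *Tox*-high, and the 118 without a *Tox* UMI are called *Tox*-zero. The other 40 cells, with *Tox* above 0 but below 20 CPM, belong to neither class.

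The e15.5 cells came from 10 CEL-Seq2 libraries of 96 wells each, sorted by fluorescence from DRG of PvtdTom embryos. In this line a bacterial artificial chromosome drives tdTomato from the parvalbumin promoter, so the sort follows parvalbumin expression and also takes in some cutaneous mechanoreceptors. For comparison there were 6 libraries of postnatal day (p) 1, labelled Trpv1Cre; PvFlp; Ai65 and PvCre; Ai14. In the first line tdTomato requires Cre from the *Trpv1* promoter together with Flp from the parvalbumin promoter, and in the second Cre from the parvalbumin promoter alone. The p1 cells were picked by hand according to the methods, while the labels name a sort. The labels give neither the mouse line of a p1 library nor the segmental level of any library, and neither was used. Nothing states that libraries came from separate animals, so the p-values measure only the spread between libraries, which may be technical.

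Proprioceptors report muscle stretch and tension and must find the correct muscle in the periphery and the correct motor neurons in the spinal cord. *Tox* encodes a nuclear protein with an HMG box, best known from T cell development. Among the families examined, Eph receptors and their ephrin ligands steer growing axons by contact, cadherins and IgLON proteins act in adhesion, and POU, Onecut, Hox and zinc finger homeobox proteins are transcription factors that set neuronal identity.

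*Tox* chose these cells, so its level is given as a description. It was 20.1 to 235 CPM in the 101 members (median 74.00), which rested on 1 to 36 UMIs per cell (median 9), and 2 members had a single *Tox* UMI. The 3 cells just inside the threshold held 20.1, 23.8 and 23.8 CPM (2, 2 and 6 UMIs), and the 3 just outside held 18.3, 19.2 and 19.4 CPM (3, 1 and 4 UMIs). Members occurred in all 10 libraries, from 1 cell in library 6 to 25 cells in library 10. They made up 12.5% (exact 95% interval 0.316 to 52.7%) of the proprioceptors in library 6 and 57.9% (40.8 to 73.7%) in library 5, with a share of 20 to 50% in the others. These intervals cover counting error only.

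**Figure D1:**
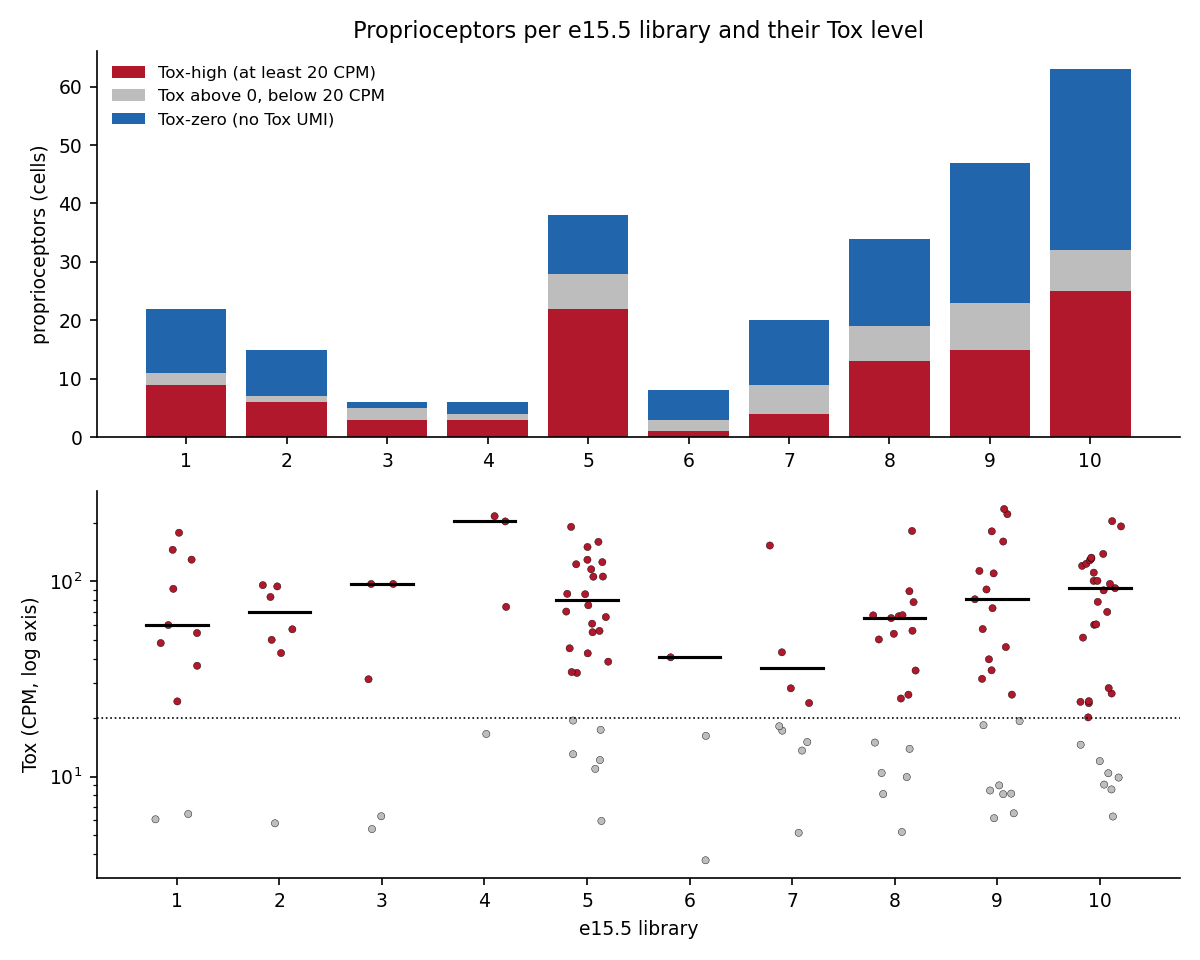
Proprioceptors of each e15.5 library by *Tox* class (top, number of cells) and the *Tox* level of every proprioceptor with a *Tox* UMI (bottom, CPM on a log axis; red, *Tox*-high; grey, below 20 CPM; bar, median of the *Tox*-high cells; dotted line, 20 CPM). Library 5 has 22 *Tox*-high cells against 10 *Tox*-zero cells, while library 7 has 4 against 11.

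Depth was similar over all cells, with library totals of 3701900 to 9299431 UMIs and a median of 119520 UMIs in *Tox*-high and 114226.5 in *Tox*-zero cells, but not within each library. In library 8 the medians were 154523 and 35287 UMIs, and in library 7 they were 202150.5 and 63856 UMIs. Over the 7 libraries that held at least 3 cells of each class (1, 2, 5, 7, 8, 9 and 10) the median depth was higher in *Tox*-high cells in 4 (two-sided exact sign-flip permutation test over libraries, p = 0.234, adjusted p = 0.576 over 13 measures, where the smallest possible p is 0.0156). In these 2 libraries the median mitochondrial share was also 3.605 (library 7) and 4.15 (library 8) percentage points higher in *Tox*-high cells. Both libraries are part of the values below, and the counts of calls are also given without them. A cell without a *Tox* UMI is not shown to lack the transcript: 25 *Tox*-zero but 8 *Tox*-high cells held fewer than 50000 UMIs. At least 5 UMIs of *Xist* together with at least 5 of Y-linked genes, a sign of a well with material of a pair of cells, were found in 1 *Tox*-high and 0 *Tox*-zero cells.

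The identity of the members was checked against their markers. The sensory neuron genes *Pou4f1*, *Tubb3* and *Prph* did not pass the edgeR test between the classes that is described below (log2 differences of 0.047, -0.063 and -0.049). Of the 8 general sensory neuron genes tested, *Slc17a6* was higher and *Isl1* lower, beside 3.58% called over all genes. In the same test 5 of the 8 had an unadjusted p below 0.05, so these genes were not all alike between the classes. The calls of *Slc17a6* and *Isl1* were lost with cells thinned to 10000 UMIs. *Epha3*, *Pou2f2* and *Zfhx4* were named for this group with earlier results of these data known, so their values describe it and lend it no independent support. All 3 were found together in 69 of 101 members (68.3%) and in 42 of 118 *Tox*-zero cells (35.6%), and none of them in 1 member and 11 *Tox*-zero cells. After thinning every cell to 10000 UMIs, *Zfhx4* was found in 49 of 101 (48.5%, exact 95% interval 38.4 to 58.7%) members and 11 of 118 (9.32%, exact 95% interval 4.75 to 16.1%) *Tox*-zero cells. *Pou2f2* was found in 32.7% and 17.8% and *Epha3* in 34.7% and 14.4% at that depth. These genes are not restricted to neurons: in 263 connective tissue wells without an *Avil* UMI, thinned alike, *Epha3* was found in 67.3%, *Zfhx4* in 77.2% and *Pou2f2* in 6.84%. None of the 3 genes separates *Tox*-high from *Tox*-zero cells by presence alone.

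To compare the classes within library, UMIs were summed per library and class and tested with edgeR's quasi-likelihood test with the library as a block and Benjamini-Hochberg adjustment over all genes tested; the genes of the rule were left out. Of 10398 genes, 189 were higher and 183 lower in *Tox*-high cells at an adjusted p below 0.05, which is 3.58% of the genes tested (1.82% higher and 1.76% lower). At least 2-fold differences were 54 of the higher and 40 of the lower genes. Of the 372 genes called, 270 differed in the same direction in all 7 libraries. Without the block 66 were higher and 62 lower, with cells of at least 50000 UMIs 173 were higher and 176 lower, and without libraries 7 and 8 the counts were 213 and 180. The number of lower genes fell to 115 without library 9 and to 110 without library 10.

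Transcription factors differed in both directions. *Pou2f2* (ENSMUSG00000008496, chromosome 7, 25087344 to 25179726), the POU protein OCT2, ranged over libraries from 38.00 to 109 CPM (median 66.96) in *Tox*-high cells and 18.2 to 36.5 CPM (median 23.03) in *Tox*-zero cells. All 7 libraries were higher in *Tox*-high cells and the classes did not overlap (log2 difference 1.47 ± 0.11, adjusted p = 2.92e-07, edgeR), as in 62 of the 10398 genes (0.596%, of which 0.279% higher and 0.317% lower). The other 5 POU genes tested, *Pou2f1*, *Pou4f1*, *Pou4f2*, *Pou4f3* and *Pou6f1*, did not pass. *Zfhx4* (ENSMUSG00000025255, chromosome 3, 5218526 to 5415857), a zinc finger homeobox gene, was at 28.5 to 80.96 CPM (median 43.5) in *Tox*-high cells and 6.28 to 22.3 CPM (median 15.7) in *Tox*-zero cells, with no overlap (log2 difference 1.63 ± 0.16, adjusted p = 6.82e-06). Its relatives *Zfhx2* (1.49) and *Zfhx3* (0.61) were higher as well, so that 3 of the 4 genes tested of this list passed, all of them upwards, beside 1.82% higher over all genes. *Nhlh2*, a basic helix-loop-helix factor of developing neurons, was higher too, at 36.4 to 106 CPM (median 68.7) in *Tox*-high cells and 12.1 to 31.7 CPM (median 23.4) in *Tox*-zero cells (log2 difference 1.62 ± 0.18, adjusted p = 2.20e-05).

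The Onecut factors split. *Onecut2* was at 286 to 593 CPM (median 463) in *Tox*-high cells and 174 to 293 CPM (median 264) in *Tox*-zero cells and was higher in 7 of 7 libraries (log2 difference 0.79 ± 0.11, adjusted p = 0.000283). *Onecut1* was at 5.34 to 17.6 CPM (median 10.1) in *Tox*-high cells and 14.03 to 29.4 CPM (median 26.9) in *Tox*-zero cells and was lower in 7 of 7 (log2 difference -1.204 ± 0.19, adjusted p = 0.000675). *Onecut3* was also lower (-0.69 ± 0.18, adjusted p = 0.0418), but this call was lost under 12 of 18 alternatives.

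Of 14 Hox genes tested, *Hoxc10* was higher (0.74 ± 0.10, adjusted p = 0.000283) and *Hoxa5* (-0.82), *Hoxa7* (-0.68) and *Hoxa10* (-0.64) were lower. Over all genes 3.58% were called. *Hoxc10*, known as a gene of caudal segments, varied far more between libraries than between the classes: its sums ran from 2.203 to 223 CPM (median 129) in *Tox*-high and from 2.07 to 116 CPM (median 81.4) in *Tox*-zero cells. Within each of the 7 libraries it was higher in the *Tox*-high cells, but in library 2 the sums were very low and nearly equal (2.20 against 2.07 CPM). Segmental level is not among the labels, and a mixture of levels within a library was not tested. The call for *Hoxc10* was lost without the block (adjusted p = 0.786), with cells thinned to 10000 UMIs (0.193) and when all cells below 20 CPM of *Tox* were the reference (0.414).

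Among other sensory lineage factors *Ebf3* was higher (0.72), and *Isl1* (-0.40), *Casz1* (-1.18) and *Cux2* (-0.67) were lower, 4 of 17 tested, beside 3.58% of all genes. *Isl1*, a LIM homeobox gene of sensory neurons, was at 470.4 to 687 CPM (median 522) in *Tox*-high cells and 652 to 783 CPM (median 707) in *Tox*-zero cells, a difference that was small but lay in the same direction in 7 of 7 libraries. Of the genes of the *Tox* family, *Tox3* was higher (0.52 ± 0.13, adjusted p = 0.0259) and *Tox4* did not pass (-0.31 ± 0.16, adjusted p = 0.396). *Tox3* missed the threshold under 12 of 18 alternatives.

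Of the guidance receptors of the EphA family 4 of the 5 tested were higher, beside 1.82% of all genes, with a list median of 1.01 against -0.0040 over all genes tested. *Epha4* was at 25.3 to 69.7 CPM (median 51.1) in *Tox*-high cells and 5.19 to 19.5 CPM (median 15.5) in *Tox*-zero cells and did not overlap between the classes (log2 difference 1.65 ± 0.19, adjusted p = 3.73e-05). *Epha5* was at 25.6 to 47.2 CPM (median 30.8) in *Tox*-high cells and 4.84 to 26.1 CPM (median 11.3) in *Tox*-zero cells (log2 difference 1.49 ± 0.22, adjusted p = 0.000494). *Epha3* (ENSMUSG00000052504, chromosome 16, 63543534 to 63864175) was at 12.5 to 76.5 CPM (median 40.8) in *Tox*-high cells and 11.5 to 51.4 CPM (median 13.2) in *Tox*-zero cells. It was higher in 7 of 7 libraries, but the ranges of the classes overlapped widely (log2 difference 1.01 ± 0.19, adjusted p = 0.00472). *Epha7* was at 99.1 to 283 CPM (median 237) in *Tox*-high cells and 31.4 to 248 CPM (median 64.96) in *Tox*-zero cells (log2 difference 0.95 ± 0.19, adjusted p = 0.00734). *Epha10* did not pass (-0.24 ± 0.15, adjusted p = 0.535). Of these calls *Epha4* and *Epha5* held under all 18 alternatives that tested them, which did not include thinned cells. *Epha3* was lost without the block (adjusted p = 0.221), and *Epha7* without the block, with thinned cells and against all cells below 20 CPM of *Tox*.

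The ephrin-A ligands tested were not called. The counts in this paragraph stand beside 3.58% of all genes called (1.82% higher and 1.76% lower) and 0.596% without overlap. None of the 3 ephrin-A genes tested passed in edgeR or DESeq2, where 1 had an unadjusted p below 0.05, with *Efna5*, a ligand of EphA receptors, at 11.02 to 43.9 CPM (median 16.9) in *Tox*-high cells and 5.61 to 32.4 CPM (median 17.4) in *Tox*-zero cells (log2 difference -0.050 ± 0.20, adjusted p = 0.959). The sign of the *Efna5* difference reversed under 4 alternatives. *Efnb2* was the only one of 5 EphB and ephrin-B genes to pass and was lower without overlap, at 64.01 to 124 CPM (median 109) in *Tox*-high cells and 157 to 218 CPM (median 185) in *Tox*-zero cells (log2 difference -0.83 ± 0.092, adjusted p = 2.48e-05). Of other guidance genes, *Flrt2*, a membrane protein that binds Unc5 receptors, was higher without overlap (1.504 ± 0.16, adjusted p = 1.87e-05). *Sema3d* (0.98), *Slit2* (0.45) and *Plxna2* (0.43) were higher by less, and none of the 22 semaphorin, plexin and neuropilin genes tested was lower.

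**Figure D2:**
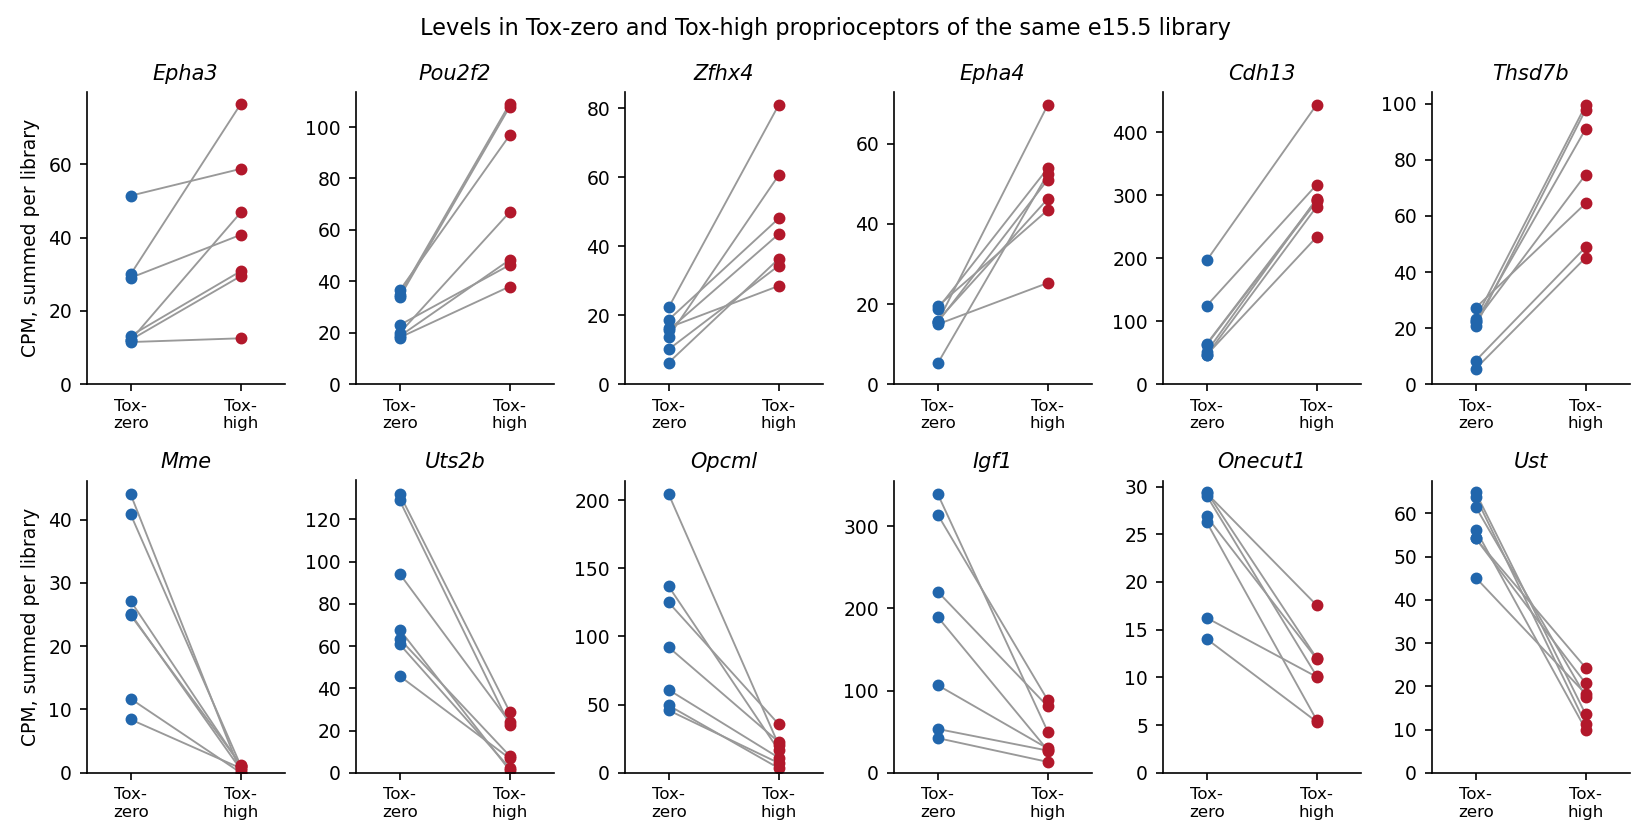
Levels (CPM, UMIs summed per library and class) of 6 genes that were higher and 6 that were lower in *Tox*-high cells, with a line joining the *Tox*-zero (blue) and *Tox*-high (red) sums of each of 7 e15.5 libraries. Every line of *Zfhx4* and *Cdh13* rises and every line of *Mme* and *Ust* falls, while the lines of *Epha3* start from 11.5 to 51.4 CPM and rise unevenly.

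Adhesion genes changed in both directions within families. The counts by family in this paragraph stand beside the 3.58% called over all genes, and the classes did not overlap for 0.596% of all genes. *Cdh13*, a cadherin held to the membrane by a lipid anchor, was at 234 to 444 CPM (median 293) in *Tox*-high cells and 46.1 to 197 CPM (median 62.9) in *Tox*-zero cells (log2 difference 1.96 ± 0.14, adjusted p = 2.15e-07). *Cdh4*, the retinal cadherin, was higher without overlap, at 19.5 to 69.7 CPM (median 42.3) in *Tox*-high cells and 7.48 to 15.2 CPM (median 11.6) in *Tox*-zero cells, and *Cdh8* rose by 0.94 on the log2 scale. *Cdh12* (-0.62) and *Cdh3* (-0.91) were lower, so that 5 of 10 cadherins tested passed. The protocadherin *Pcdh7* was higher (0.72), and *Pcdh8* (-0.54) and *Pcdh10* (-0.69) were lower, of 9 tested. These families therefore held members that moved in opposite directions. Contactins and their partners divided too, with *Cntnap5a* (1.87) and *Cntn4* (1.07) higher and *Cntn2* (-0.43) and *Cntn5* (-0.69) lower, of 8 tested. The IgLON genes *Opcml* and *Ntm* were both lower, 2 of 5 tested. *Opcml* was at 3.37 to 35.6 CPM (median 16.5) in *Tox*-high cells and 45.8 to 204 CPM (median 92.1) in *Tox*-zero cells without overlap (log2 difference -2.59 ± 0.17, adjusted p = 1.25e-07).

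The lowest ratio of any gene called belonged to *Mme*, which encodes the membrane peptidase neprilysin. Its sums were 0 to 1.26 CPM (median 0.712) in *Tox*-high cells and 8.42 to 43.96 CPM (median 25.1) in *Tox*-zero cells, and all 101 members together held 9 *Mme* UMIs against 312 in *Tox*-zero cells (log2 difference -4.82 ± 0.32, adjusted p = 1.25e-07). At full depth *Mme* was found in 8 of 101 (7.92%, exact 95% interval 3.48 to 15.01%) members and 53 of 118 (44.9%, exact 95% interval 35.7 to 54.3%) *Tox*-zero cells. Several lower genes encode secreted peptides or factors. *Uts2b*, which encodes a urotensin-like peptide, was lower without overlap, at 1.12 to 28.8 CPM (median 7.95) in *Tox*-high cells and 45.8 to 132 CPM (median 67.8) in *Tox*-zero cells (log2 difference -2.69 ± 0.20, adjusted p = 2.45e-07). *Igf1*, the insulin-like growth factor, was at 13.2 to 88.3 CPM (median 29.6) in *Tox*-high cells and 42.2 to 339 CPM (median 189.5) in *Tox*-zero cells (log2 difference -1.96 ± 0.15, adjusted p = 2.92e-07). No other gene of the 6 tested of the Igf system passed, beside 3.58% called over all genes. *Sct*, the secretin gene, was lower (-1.92 ± 0.30, adjusted p = 0.000775), as was *Stc1* (-1.66 ± 0.22, adjusted p = 0.000175), while its relative *Stc2* was higher (1.66 ± 0.22, adjusted p = 0.000197). *Nts*, the neurotensin precursor, was higher (2.14 ± 0.45, adjusted p = 0.0101) with 315 UMIs in members and 59 in *Tox*-zero cells, but library 7 went the other way.

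The remaining genes with the largest differences in the same direction in every library were *Serpinb8* (2.11), *Thsd7b* (1.99), *Vwa2* (1.83), *Sparcl1* (1.51) and *Vangl1* (1.51) upwards. Downwards they were *Fjx1* (-2.98), *Adamts2* (-2.03), *Ust* (-1.702), *Ppp1r3b* (-1.66), *Vwc2l* (-1.64) and *Bambi* (-1.39). *Thsd7b* was at 45.2 to 99.5 CPM (median 74.8) in *Tox*-high cells and 5.53 to 27.3 CPM (median 22.3) in *Tox*-zero cells, and *Vangl1*, a planar cell polarity gene, was at 23.8 to 56.1 CPM (median 31.3) in *Tox*-high cells and 5.61 to 22.6 CPM (median 8.71) in *Tox*-zero cells. *Fjx1*, which encodes a secreted kinase-like protein of planar polarity, was at 1.5 to 7.52 CPM (median 3.37) in *Tox*-high cells and 17.8 to 43.96 CPM (median 27.7) in *Tox*-zero cells. All of these except *Serpinb8* and *Vwc2l* did not overlap between the classes, beside 0.596% of all genes. The calls of all of them held under every alternative in which they were tested, except that *Vwc2l* was lost without the block (adjusted p = 0.131). None of them was tested with thinned cells.

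**Figure D3:**
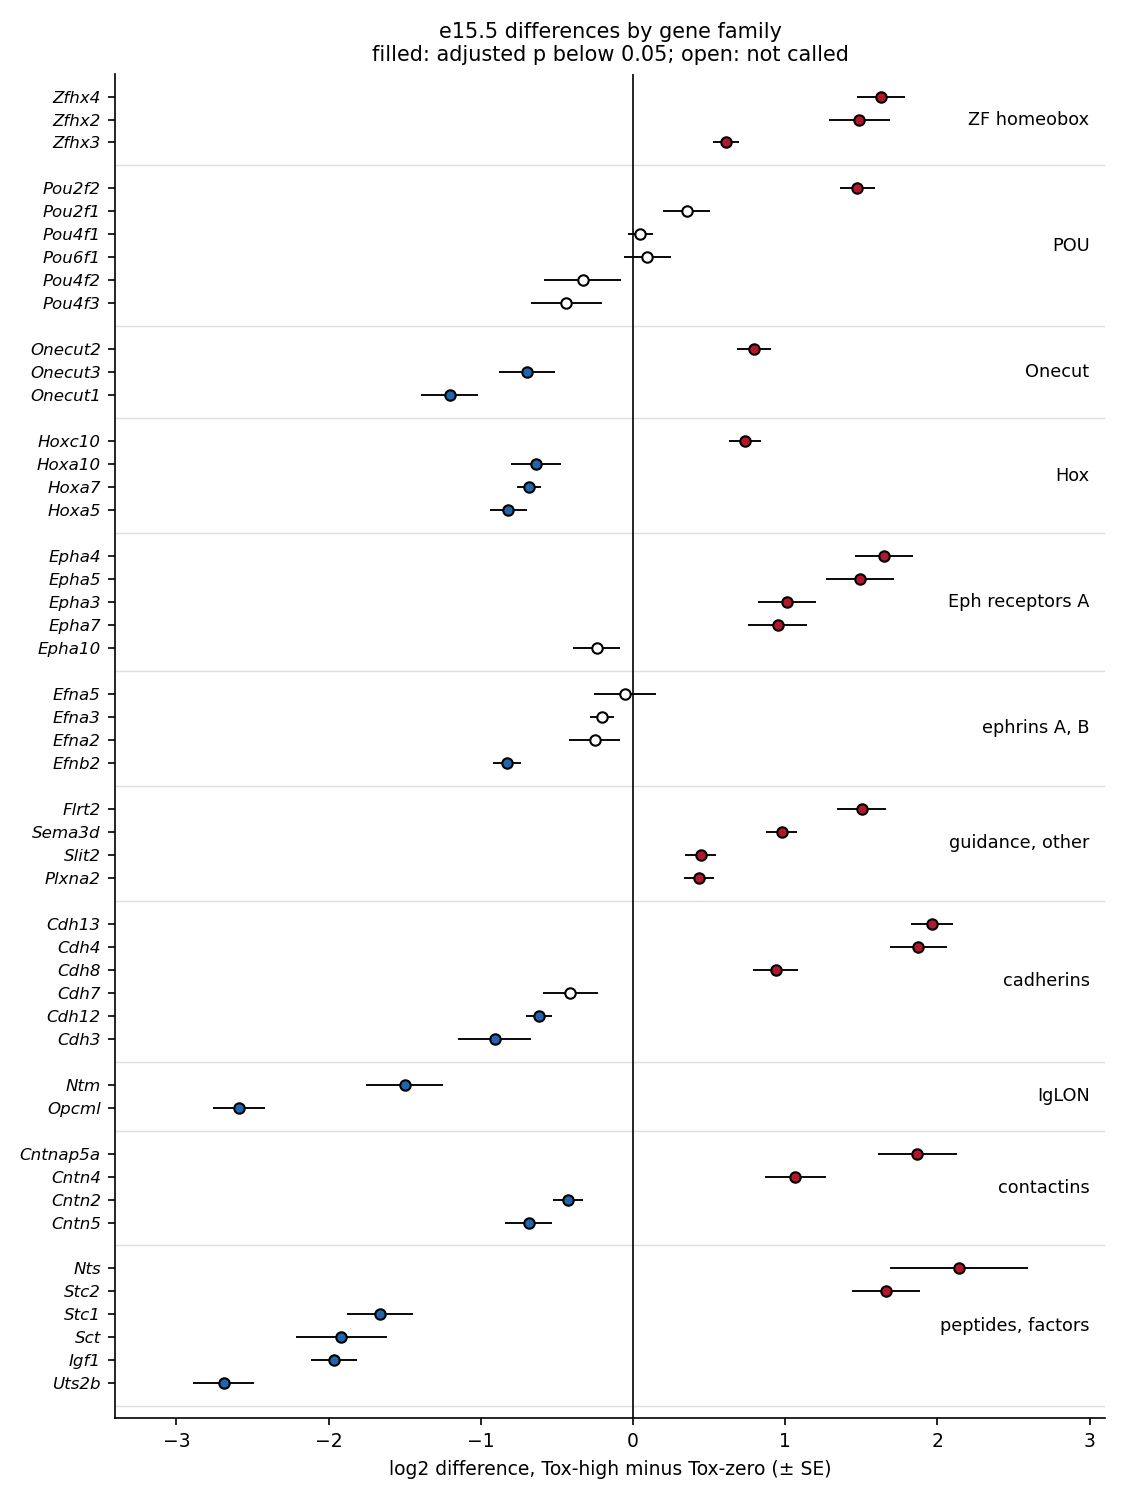
Log2 difference between *Tox*-high and *Tox*-zero proprioceptors at e15.5 (points, edgeR estimate with the library as a block; bars, SE; red, called higher; blue, called lower; open, not called at an adjusted p of 0.05) for genes of the families described. The 4 called EphA receptors lie between 0.95 and 1.65, and the Onecut, cadherin and contactin families hold calls on both sides of 0.

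Genes of excitability were counted by list, beside the 3.58% called over all genes. Of the voltage-gated potassium channels 3 of 18 tested were lower (*Kcna1*, *Kcnq3* and *Kcns1*, -0.46, -1.05 and -0.33) and none was higher. Of 9 sodium channel genes *Scn3b* was higher (0.20), of 15 calcium channel genes *Cacng2* was lower (-0.69), and none of 7 HCN and two-pore potassium channel genes or of 7 GABA-A receptor subunits passed (3 and 2 of them at an unadjusted p below 0.05, 0 in DESeq2). *Piezo2*, the stretch-gated channel of proprioceptors, was higher by a small amount, at 829 to 1146 CPM (median 1013) in *Tox*-high cells and 538 to 1038 CPM (median 759) in *Tox*-zero cells (0.40 ± 0.065, adjusted p = 0.00108). *Grik1* was the only one of 10 glutamate receptor genes called (-0.92). The neurofilament genes *Nefl* (-0.26) and *Nefm* (-0.37) were lower and *Slc17a6*, a vesicular glutamate transporter, was higher (0.35). None of 4 neurotrophin and GDNF receptor genes, of 3 genes linked to spindle or tendon organ afferents or of 15 immediate early genes passed in edgeR or DESeq2, with 1, 1 and 4 at an unadjusted p below 0.05.

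*Trpv1*, a heat-gated channel typical of nociceptors, had too few UMIs to pass the filter on low counts. Its sums were 0.5001 to 12.97 CPM (median 2.81) in *Tox*-high cells and 0 to 0.786 CPM (median 0) in *Tox*-zero cells, higher in 7 of 7 libraries but with overlap. With all genes fitted, without the filter, it was called higher (log2 difference 3.46 ± 0.61, adjusted p = 1.47e-06, edgeR). It was found in 19 of 101 (18.8%, exact 95% interval 11.7 to 27.8%) members with up to 11 UMIs, and in 7 of 118 (5.93%, exact 95% interval 2.42 to 11.8%) *Tox*-zero cells with no more than 1. In connective tissue wells, which should lack it, the share was 2.66% at a median of 27624 UMIs. At 10000 UMIs per cell *Trpv1* was found in 3 of 101 members, 0 of 118 *Tox*-zero cells (exact 95% interval 0 to 3.08%) and 2 of 263 connective wells. The 3 members came from 2 libraries, too few for a test of the thinned share. Summed over the 19 members with a *Trpv1* UMI, from 9 libraries, the nociceptor genes *Scn10a* (10.8 CPM against 0.509 in the other 82 members) and *Runx1* (8.61 against 0.305) were also higher. These sums rest on few cells, since *Scn10a* was found in 6 and *Runx1* in 8 of all 101 members. *Tac1* went the other way (70.0 against 166 CPM), and *Runx3* was alike (303 and 312 CPM). Whether a second cell shared these wells was not tested.

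*Gabrg1*, a GABA-A receptor subunit proposed for limb-innervating neurons, was not confined to *Tox*-zero cells. At full depth it was found in 16 of 101 (15.8%, exact 95% interval 9.33 to 24.4%) members and 42 of 118 (35.6%, exact 95% interval 27.00 to 44.9%) *Tox*-zero cells. The share was 2.66% in connective wells, at a median of only 27624 UMIs. At 10000 UMIs per cell the shares were 6.93% (2.83 to 13.8%) of members, 12.7% (7.29 to 20.1%) of *Tox*-zero cells and 0.76% of connective wells. Over the 7 libraries this thinned share did not pass between the classes (exact sign-flip p = 0.875, adjusted p = 0.938). The sums of *Gabrg1* were 0 to 107 CPM (median 2.09) in *Tox*-high cells and 0 to 62.3 CPM (median 15.7) in *Tox*-zero cells, lower in 4 of 7 libraries and higher in 2 (log2 difference -0.27 ± 0.49, adjusted p = 0.873). The sign reversed without library 10 (0.29). Reading by *Tox* level, *Gabrg1* stood at 24.6, 22.7, 45.6, 11.03 and 0.839 CPM in cells without *Tox*, below 20 CPM, at 20 to 50, 50 to 100 and at least 100 CPM. The values of members rest on 228 UMIs in 16 cells. Their library sums were 107 and 48.5 CPM in libraries 7 and 8 but 0 to 1.12 CPM in libraries 1, 2 and 5. The steps do not hold the same libraries, so a relation to *Tox* level cannot be told apart from a difference between libraries. *C1ql2*, proposed for abdominal muscle, was at 0 to 3.56 CPM (median 1.5) in *Tox*-high cells and 1.56 to 30.98 CPM (median 14.7) in *Tox*-zero cells, lower in 7 of 7 libraries, and *Chodl* had 18 UMIs in members against 120 in *Tox*-zero cells. Neither passed the filter on low counts, and with all genes fitted both were called lower (log2 differences -2.75 ± 0.35, adjusted p = 1.45e-12, and -1.96 ± 0.42, adjusted p = 0.000248, edgeR).

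Several of the genes above were also graded with *Tox*. From cells without *Tox* to cells with at least 100 CPM, the summed levels of *Pou2f2* were 24.6, 32.5, 49.9, 71.5 and 94.00 CPM and those of *Epha3* 19.4, 26.1, 32.2, 44.1 and 52.3 CPM. *Zfhx4* ran through 15.9, 25.1, 33.8, 48.5 and 50.9 CPM and *Cdh13* through 84.2, 141, 249, 316 and 319 CPM. The 40 cells below the threshold were intermediate for these 4 genes. Downwards, *Uts2b* stood at 79.2, 52.5, 16.4, 10.5 and 8.95 CPM, *Igf1* at 202, 123, 57.01, 43.6 and 51.2 CPM and *Mme* at 23.5, 12.7, 0, 1.14 and 0.839 CPM. The steps hold 118, 40, 28, 40 and 33 cells from 10, 10, 9, 8 and 7 libraries and were compared as a description only.

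**Figure D4:**
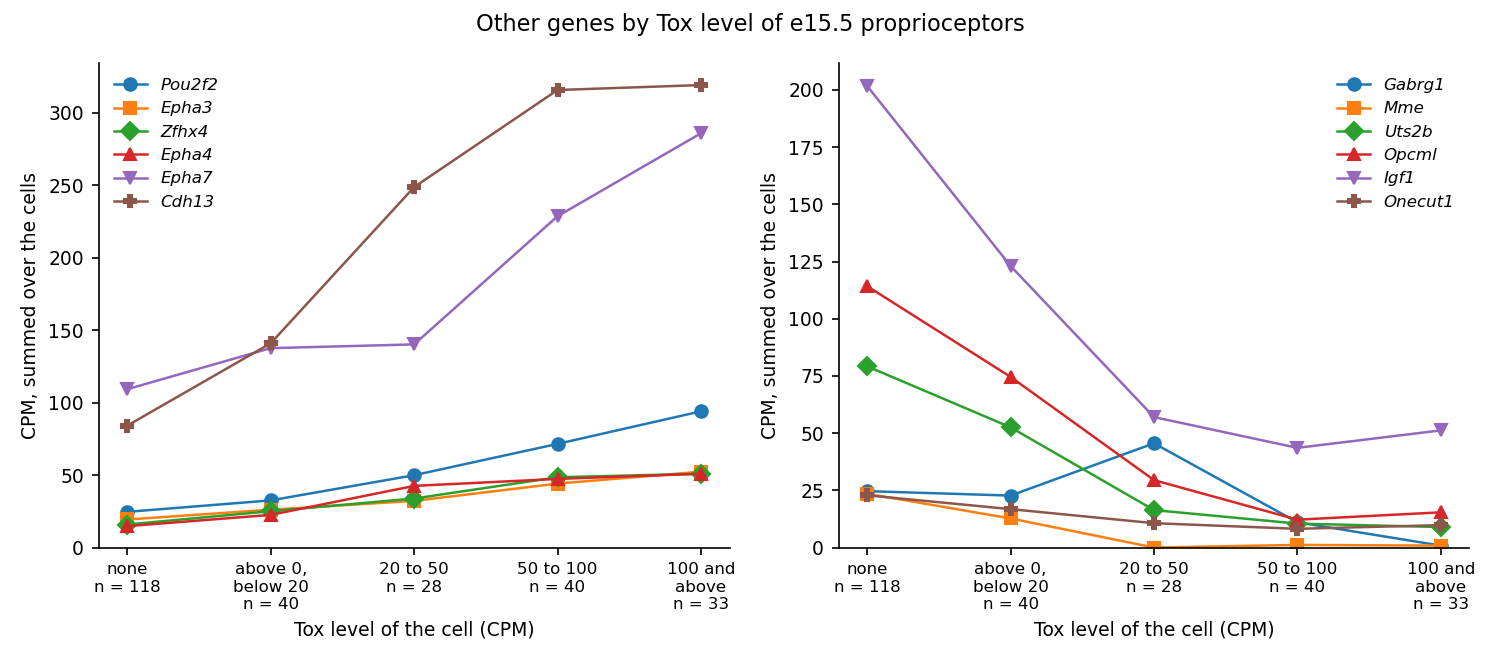
Summed level (CPM) of 6 genes that were higher (left) and 6 that were lower or compared (right) in proprioceptors of rising *Tox* level at e15.5, with the number of cells in each step. *Cdh13* passes from 84.2 to 319 CPM, while *Mme* is at or below 1.14 CPM in every step above 20 CPM of *Tox* and *Gabrg1* is highest, at 45.6 CPM, in the step from 20 to 50 CPM.

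Across single proprioceptors the genes whose log level followed *Tox* most closely were *Cdh13*, *Thsd7b*, *Nhlh2*, *Epha4*, *Stc2*, *Vangl1*, *Zfhx4*, *Epha5*, *Fxyd6* and *Bmp1*, by the median Pearson r within 7 libraries of at least 10 cells among 12177 protein-coding genes. The median r was 0.65 for *Cdh13* (0.47 to 0.69 over libraries), 0.59 for *Thsd7b* and 0.45 for the tenth, *Bmp1*. Among *Tox*-high cells alone, in 5 libraries, *Cdh13* had a median r of -0.011, while *Vangl1* had 0.53 and *Epha7* 0.47. The lowest values over all proprioceptors belonged to *Hmx1* (-0.58), *Uts2b* (-0.55) and *Ust* (-0.54). Cells of a library share its depth and preparation, so these values describe the cells and were not tested.

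Promoters of genes that moved in each direction are shown because *Pou2f2*, whose protein binds the octamer ATGCAAAT, differed between the classes. The 250 bases before the RefSeq start (GRCm38.p6) are given 5′ to 3′ on the strand of the gene for *Epha3*, which was higher, and for *Onecut1*, *Uts2b*, *Vwc2l* and *Pcdh8*, which were lower, with the octamer on either strand in capitals.
Epha3 (chr16:63864176-63864425, minus strand): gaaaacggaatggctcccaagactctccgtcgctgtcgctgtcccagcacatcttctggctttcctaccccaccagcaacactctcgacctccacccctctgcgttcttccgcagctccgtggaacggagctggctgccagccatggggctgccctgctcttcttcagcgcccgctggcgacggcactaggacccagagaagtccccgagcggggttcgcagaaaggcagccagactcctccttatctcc
Onecut1 (chr9:74861671-74861920, plus strand): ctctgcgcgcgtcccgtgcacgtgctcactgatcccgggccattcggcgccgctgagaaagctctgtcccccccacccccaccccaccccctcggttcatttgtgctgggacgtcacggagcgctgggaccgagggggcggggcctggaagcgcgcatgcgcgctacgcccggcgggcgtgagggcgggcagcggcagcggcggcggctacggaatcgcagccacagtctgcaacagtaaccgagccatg
Uts2b (chr16:27370240-27370489, minus strand): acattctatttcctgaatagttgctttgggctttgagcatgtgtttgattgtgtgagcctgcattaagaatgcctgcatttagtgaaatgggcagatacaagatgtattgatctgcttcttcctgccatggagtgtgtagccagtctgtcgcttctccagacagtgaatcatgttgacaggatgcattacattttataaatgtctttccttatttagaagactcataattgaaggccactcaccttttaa
Vwc2l (chr1:70725465-70725714, plus strand): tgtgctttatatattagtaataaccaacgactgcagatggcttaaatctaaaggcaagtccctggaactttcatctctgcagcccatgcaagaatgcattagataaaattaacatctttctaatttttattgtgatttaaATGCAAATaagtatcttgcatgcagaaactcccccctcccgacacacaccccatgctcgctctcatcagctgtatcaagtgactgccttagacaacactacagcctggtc
Pcdh8 (chr14:79771313-79771562, minus strand): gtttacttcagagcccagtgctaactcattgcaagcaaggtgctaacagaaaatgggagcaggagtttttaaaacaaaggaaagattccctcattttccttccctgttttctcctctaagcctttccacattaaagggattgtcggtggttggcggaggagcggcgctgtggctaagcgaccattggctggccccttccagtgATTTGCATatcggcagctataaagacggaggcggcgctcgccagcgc
The octamer lies in 526 of all 32851 such windows (1.60%). It begins 110 bases before the start of *Vwc2l* and 47 before that of *Pcdh8*, and its letters are not in the other 3 windows. Of 82 named genes 57 had a promoter in the table, too few to read a share from, and 3 of these held the octamer (*Vwc2l*, *Pcdh8* and *Pde1c*). A match is a description of the letters and does not show binding. *Tox* and *Zfhx4* were matched to no promoter.

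Markers of other cell types were summed in both classes. Glial genes without the genes of the rule were higher in *Tox*-high cells in 7 of 7 libraries (52.7 to 73.7 against 26.9 to 63.6 CPM, exact sign-flip p = 0.0156, adjusted p = 0.102). Connective tissue genes were likewise higher in 7 of 7 (19.3 to 244 against 16.5 to 197 CPM, p = 0.0156, adjusted p = 0.102). In the glial list the difference lay in *Mbp* (51.1 against 30.5 CPM, log2 difference 0.74 ± 0.16, adjusted p = 0.0139), while *Sox10* (1.52 and 1.21 CPM) was low in both. Without *Mbp* the other 6 glial genes summed to 9.82 to 17.6 CPM in *Tox*-high and 8.38 to 20.9 CPM in *Tox*-zero cells. In the connective list it lay in *Postn* (18.5 against 3.92 CPM) and *Vcan* (24.1 against 4.22 CPM), while *Col3a1* (19.2 and 22), *Dlk1* (19.1 and 21.2) and *Dcn* (0.8802 and 1.51) were no higher in members. *Postn* and *Vcan* did not pass the filter on low counts, and with all genes fitted both were called higher (2.22 and 2.33). Without *Postn* and *Vcan* the other 6 connective genes summed to 13.8 to 107 CPM in *Tox*-high and 9.17 to 185 CPM in *Tox*-zero cells. The nociceptor genes summed to 149 to 304 CPM in *Tox*-high and 53.9 to 299 CPM in *Tox*-zero cells (p = 0.266, exact permutation test, adjusted p = 0.576). The part of these cells in the results was not tested. The summed mechanoreceptor, cycling, blood, endothelial and muscle lists had adjusted p-values of 0.271 to 0.938, and *Mafa*, *Tyrobp*, *Cldn5*, *Tek*, *Actc1* and *Myod1* had 0 UMIs in both classes.

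Against *Gabrg1*-positive cells, defined as *Tox*-zero proprioceptors with at least 20 CPM of *Gabrg1*, the comparison asks how 2 presumptive muscle types differ. There were 24 such cells, and libraries 7, 8, 9 and 10 held enough of both, with 4 to 25 *Tox*-high and 4 to 9 *Gabrg1*-positive cells. The *Tox*-high cells were not free of *Gabrg1*, and 8 of all 101 held at least 20 CPM of it. Their sums were 107, 48.5, 26.7 and 2.09 CPM of *Gabrg1* in the 4 libraries, against 83.7, 63.4, 158 and 128 CPM in the *Gabrg1*-positive cells. The 2 groups are therefore not cleanly divided by this gene. Of 9465 genes tested 100 were higher and 72 lower in *Tox*-high cells (1.82%, of which 1.06% higher and 0.761% lower; edgeR with the library as a block). These calls rest on few cells: leaving out library 7, whose 5 *Gabrg1*-positive cells held 167193 UMIs, gave 283 and 302, and leaving out library 8, 9 or 10 gave 34 and 24, 49 and 22, or 26 and 10. The *Tox*-high cells are those of the comparison above and the *Gabrg1*-positive cells are a part of its *Tox*-zero cells, so the results are not independent.

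*Bcl11b*, a zinc finger transcription factor, was at 61.4, 79.01, 61.02 and 78.7 CPM in *Tox*-high and 0, 0, 2.03 and 6.16 CPM in *Gabrg1*-positive cells of the 4 libraries (log2 difference 4.79 ± 0.43, adjusted p = 0.000745). *Npas3*, a neuronal helix-loop-helix factor, was at 52.7, 75.01, 85.6 and 97.1 against 11.96, 4.75, 4.06 and 0 CPM (4.44 ± 0.43, adjusted p = 0.000791). Neither range overlapped, which over these 4 libraries held for 7.71% of all genes (4.44% higher and 3.28% lower). Against all *Tox*-zero cells, in the fit on 7 libraries, both differences were smaller (0.95 and 1.18). The libraries as well as the reference cells differ between these 2 fits. *Epha3* was at 12.5, 29.5, 30.9 and 46.9 against 0, 7.92, 8.12 and 3.08 CPM (2.45 ± 0.40, adjusted p = 0.00992), again without overlap. *Epha5* (2.38), *Epha7* (1.52), *Zfhx4* (2.15), *Pou2f2* (1.27) and *Hoxc10* (1.63) were higher too, while *Epha4* (1.61 ± 0.38, adjusted p = 0.0665) and *Efna5* (-0.34 ± 0.32, adjusted p = 0.779) did not pass. *Cdh7*, which did not pass against all *Tox*-zero cells of 7 libraries, was higher against the *Gabrg1*-positive ones of these 4 (1.44 ± 0.22, adjusted p = 0.00681).

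Lower in *Tox*-high than in *Gabrg1*-positive cells were *Kcnip4*, a modulator of potassium channels (1.25, 6.001, 2.81 and 1.67 against 29.9, 77.6, 80.2 and 112 CPM, -4.67 ± 0.36, adjusted p = 0.000221), and *Nr2f2*, an orphan nuclear receptor (30.1, 22.5, 25.2 and 7.11 against 59.8, 144, 289 and 212 CPM, -3.25 ± 0.39, adjusted p = 0.00161). Neither overlapped between the groups. *Opcml* (-3.23), *Ntm* (-2.69), *Sct* (-3.55), *Uts2b* (-2.78), *Mme* (-5.32) and *Igf1* (-1.99) were lower in this comparison also.

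At p1 the same rule found 124 proprioceptors, of which 58 were *Tox*-high and 55 *Tox*-zero, and libraries 1, 2 and 5 held at least 3 cells of each (24 and 14, 3 and 32, and 7 and 8 cells). Of 10557 genes 14 were higher and 36 lower in *Tox*-high cells (0.474%, of which 0.133% higher and 0.341% lower; edgeR with the library as a block). Without library 1 the counts were 127 and 242, without library 2 they were 30 and 30, without library 5 they were 11 and 16, and without the block they were 5 and 10. *Pou2f2* was at 39.4, 23.3 and 67.03 CPM in *Tox*-high and 8.71, 9.78 and 8.89 CPM in *Tox*-zero cells of the 3 libraries (2.06 ± 0.33, adjusted p = 0.0147). *Zfhx4* was at 41.8, 12.96 and 64.8 against 6.96, 8.85 and 10.2 CPM (2.04 ± 0.38, adjusted p = 0.0320). Neither overlapped between the classes, which with 3 libraries held for 15.1% of all genes (8.52% higher and 6.58% lower). *Epha3*, at 30.9, 12.96 and 40.7 against 17.99, 6.05 and 8.89 CPM, overlapped and did not pass (1.2 ± 0.34, adjusted p = 0.197).

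Of the 346 genes called at e15.5 and tested at p1, 267 (77.2%) had the same sign at p1, against 53.6% of all 9699 genes tested at both ages, and 15 were called at both, each in the same direction. Upwards these were *Pou2f2*, *Zfhx4*, *Igsf21* and *Tnfaip8l3*. Downwards they were *Stc1*, *Onecut1*, *Ust*, *Ppp1r3b*, *Uts2b*, *Lrp1b*, *Cbfa2t3*, *B3galt1*, *Cdh12*, *Nfia* and *Gm16551*. *Onecut1* was at 6.79, 7.78 and 8.79 against 35.4, 34.9 and 95.2 CPM (-2.75 ± 0.32, adjusted p = 0.00290), and *Stc1*, a stanniocalcin, was at 1.699, 2.59 and 1.099 against 9.29, 47.3 and 78.7 CPM (-4.02 ± 0.52, adjusted p = 0.00363). *Prlr*, the prolactin receptor, was called at p1 (26.2, 15.6 and 72.5 against 0.5803, 1.86 and 0 CPM, 4.45 ± 0.57, adjusted p = 0.00354) and had too few UMIs at e15.5 for the fit. *Asic3*, a proton-gated channel of sensory neurons, was called at p1 (1.78 ± 0.25, adjusted p = 0.00624) and not at e15.5 (0.47, adjusted p = 0.300), and the difference between ages was not among those called.

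**Figure D5:**
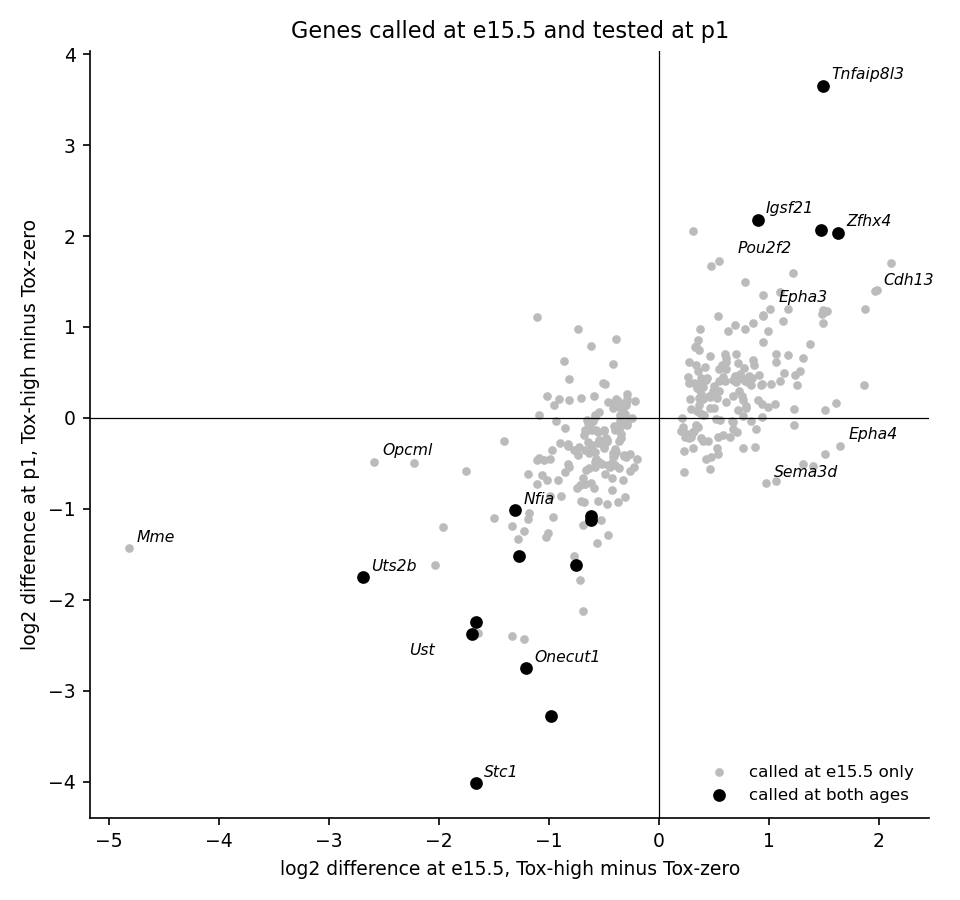
Log2 difference between *Tox*-high and *Tox*-zero cells at e15.5 (x axis) and p1 (y axis) for the 346 genes called at e15.5 and tested at p1 (grey, called at e15.5 only; black, called at both ages). The 15 black points lie in the quadrants of equal sign, and *Epha4* and *Sema3d*, above 0 at e15.5, lie below 0 at p1.

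The difference between the classes was itself compared between ages, in 1 fit with the library as a block. Of 10356 genes 18 differed (0.174%), 6 with a higher (0.0579%) and 12 with a lower (0.116%) difference at p1. The count was 0 without the block (822 genes at an unadjusted p below 0.05), 508 without library 1 of p1, and 4 to 11 without e15.5 library 1, 2, 7, 9 or 10 or p1 library 5. *Mme*, nearly absent from members at e15.5, was at 5.096, 5.18 and 7.69 CPM in *Tox*-high and 14.5, 12.6 and 19.05 CPM in *Tox*-zero cells at p1 (change of the log2 difference 3.39 ± 0.56, adjusted p = 0.0132). *Opcml*, low in members at e15.5, reached 256, 199.6 and 265 CPM at p1 against 249, 342 and 423 CPM (change 2.12 ± 0.27, adjusted p = 0.00102). *Epha4* was at 99.2, 20.7 and 23.1 against 86.5, 60.1 and 26.7 CPM at p1, where its difference was -0.30 (change -1.91 ± 0.36, adjusted p = 0.0316), and *Sema3d*, 0.98 at e15.5, had a difference of -0.72 at p1 (change -1.71 ± 0.21, adjusted p = 0.00102). Age, mouse line and the way of isolation change together between the 2 sets of libraries and cannot be told apart.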

How the data were processed

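The deposited values are UMI counts per gene and well, which the authors made from CEL-Seq2 reads with scruff, and the submitters' processing notes name the builds GRCm38 and mm10. They cover 49671 genes, and the deposited tables were not filtered for cells or genes. Gene symbols and positions are those of GENCODE M21 on GRCm38 (49412 genes matched), and promoter sequences are those of RefSeq for GRCm38.p6. Groups were taken from the labels (age and library), and the cell classes from the counts by the rule given above. Doublets were not called with a tool. No cells were identical between libraries.

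Counts of the cells of a class were summed per library when at least 3 cells of each class were present, filtered with filterByExpr, scaled by TMM and tested with glmQLFit and glmQLFTest of edgeR 4.0.16 in R 4.3.3, with the library as a block and a threshold of 0.05 on the Benjamini-Hochberg adjusted p. The pairing of sums by library was checked first: the deviations of the same library from the class means correlated at 0.174 to 0.444 (median 0.297), against a median of -0.0648 between libraries. DESeq2 1.42.0 (Wald test) was an alternative. Single measures were tested with exact two-sided sign-flip permutations over 7 libraries in Python 3.11.15. Thinning drew 10000 UMIs per cell. In data simulated from these libraries with 200 changed genes, the e15.5 fit on 10398 genes recovered 92.4% of 2-fold and 100% of 4-fold changes with 7.16% false calls. The p1 fit on 10557 genes recovered 55.4% and 93.0% with 6.50% false calls. The fit against *Gabrg1*-positive cells, on 9465 genes, recovered 65.2% and 96.6% with 7.40% false calls. In each fit the share of false calls was above the threshold of 0.05.

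Genes named in the text were those of the marker and muscle lists, the 12 largest differences in each direction among protein-coding genes that moved the same way in every library, and called members of the families. The members and the lists were chosen with earlier results of these data known. A few named genes are not reported here.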

Additional observations from a re-analysis of the deposited data

Results flagged for a closer look

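Among 75 groups of 7 library sums of the named genes, 6 held a library far from the others by Dixon's criterion, which chance alone gives in about 1 of 20 groups. In *Tox*-high cells of library 7, which were 4 cells, *Efna5* stood at 43.9 CPM (11.02 to 24.5 in the other libraries) and *Pde1c* at 33.9 CPM (0 to 12.5). In *Tox*-high cells, *Chodl* stood at 5.50 CPM in library 8 (0 to 1.10 in the others) and *Cdh13* at 444 CPM in library 1 (234 to 317). In the *Tox*-zero cells of library 8, whose median depth was 35287 UMIs, *Epha4* stood at 5.19 CPM (14.96 to 19.5) and *Ppp1r3b* at 90.9 CPM (54.7 to 69.2).

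The difference between *Tox*-high and *Tox*-zero cells differed between e15.5 and p1 for 18 genes by the interaction term of edgeR. It was higher at p1 for *Mme* (by 3.39 on the log2 scale), *Opcml* (2.12), *Gpc6* (1.67), *Wnt7a* (1.28), *Fabp3* (0.91) and *Pgk1-rs7* (0.85), the last a copy of Pgk1 whose counts are uncertain. Among the 12 genes with a lower difference at p1 were *B3gat1* (-5.16), *Epha4* (-1.91), *Vangl1* (-1.89), *Gm39244* (-1.86), *Tenm1* (-1.85), *Sema3d* (-1.71), *Rnf125* (-1.40), *Tmeff2* (-1.17), *Ncam1* (-1.02), *9530059O14Rik* (-0.84) and *Malat1* (-0.83). None of the 18 was called without the library block.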

How the results depend on the processing

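At e15.5 the counts of 189 higher and 183 lower genes were 190 and 182 with RLE scaling, 131 and 122 with DESeq2, 396 and 390 without the count filter, 66 and 62 without the replicate block, and 12 and 9 of 2651 genes with cells thinned to 10000 UMIs. Leaving out one library gave 128 to 214 higher and 110 to 184 lower genes. Libraries 7 and 8 were left out as an alternative chosen after seeing the data. At p1 the 14 and 36 became 5 and 10 without the block and 30 and 30 with at least 5 cells per sum, and leaving out one library gave 11 to 127 and 16 to 242. Against *Gabrg1*-positive cells the 100 and 72 became 319 and 231 without the filter, 172 and 167 with at least 5 cells per sum, and 99 and 84 without the block, and leaving out one library gave 26 to 283 and 10 to 302. The 18 genes that differed between ages became 0 without the block and 4 to 508 without one library.

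Reversed signs concerned genes that were not called: *Gabrg1* (0.0057 without the block, -1.03 to 0.29 without one library), *Efna5* (0.29 without the caps on glial and collagen genes, -0.20 to 0.097 without one library), *Cdh7* (0.041 without the caps) and *Pde1c* (0.33 without the caps, -0.49 to 0.45 without one library). The cause of these changes was not tested. *Pou2f2*, *Zfhx4*, *Epha4*, *Epha5*, *Cdh13*, *Mme*, *Uts2b* and *Opcml* kept direction and call in every alternative that tested them. Of these only *Cdh13* was tested with cells thinned to 10000 UMIs, so the other calls were not examined at equal depth. With thinned cells 3 named genes kept their call and 4 lost it (*Epha7*, *Hoxc10*, *Isl1* and *Slc17a6*). Without the block the calls of *Epha3*, *Epha7*, *Hoxc10*, *Onecut3*, *Tox3*, *Slc17a6* and *Vwc2l* were lost, 7 of 41 named genes.

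At e15.5 a sum of 4 to 31 cells per library and class limits low genes: *Trpv1*, *C1ql2*, *Chodl* and *Tox2* did not pass the filter, and without it the first 3 were called (3.46, -2.75 and -1.96) and *Tox2* was not (0.77, adjusted p = 0.110, edgeR). Libraries, not cells, were the replicates, and 3 of them at p1 detect mainly large differences.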

Other observations

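*Hpcal1*, a neuronal calcium sensor, was the only one of 8 calcium-binding genes called at e15.5 (0.27 ± 0.067, adjusted p = 0.0302, edgeR), beside 3.58% called over all genes. Of the synaptic organizer genes *Lrrtm1* was lower in *Tox*-high cells (-2.22 ± 0.33, adjusted p = 0.000476). *Lrrtm1*, a postsynaptic adhesion protein, was at 1.25 to 9.501 CPM (median 3.56) in *Tox*-high cells and 8.65 to 37.3 CPM (median 22.3) in *Tox*-zero cells.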
